A study of Mus musculus with 6 samples.

Results

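The genes described here are the antigen presentation genes of MHC class I and class II, in endothelial cells sorted from mouse mammary tumours by whether they carried nanoparticles. They are 34 genes, chosen by name from the 49315 gene IDs counted: 10 class I surface chains, 8 genes of peptide transport and loading, 5 genes of the immunoproteasome, 2 regulators and 9 class II genes. Of them, 33 had enough reads to be tested, and H2-Oa did not. Female Balb/c mice, 10 weeks old at harvest, bore tumours of the 4T1 line, a mouse mammary carcinoma, implanted in the mammary fat pad 2 weeks earlier. All of them had been given 1E12 gold nanoparticles (50 nm across, with polyethylene glycol of 5 kDa and Cy5, a dye) through a tail vein and were harvested 1 hour later. From digested tumours, cells with the leukocyte marker CD45 were removed, cells with the endothelial marker CD31 were kept, and flow sorting then split these into cells with particles (NP+) and cells without them (NP-). Each of the 3 tumours (MET-106, MET-107, MET-108) gave 1 NP+ and 1 NP- library (n = 3 each), so no mouse without particles is in the comparison. The question is how the RNA of these genes differed between cells with and without particles.

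Class I molecules show peptides from inside the cell on nearly every nucleated cell. The proteasome cuts the peptides, the Tap1-Tap2 transporter moves them into the endoplasmic reticulum (ER), and a loading complex fits them to a heavy chain paired with beta-2-microglobulin. Class II molecules show peptides from endosomes, and outside professional antigen-presenting cells they appear mostly after interferon-gamma, which also raises class I genes in endothelium.

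Total gene counts were 41830256, 58089600 and 44901340 in the NP+ libraries, against 44694267, 20856410 and 27396773 in the NP- libraries. Levels are given as CPM, the count of a gene relative to all counts of its library, scaled between libraries by the TMM method, and libraries are always listed in the order MET-106, MET-107, MET-108. Endothelial markers summed to 9085 to 11078 CPM in NP+ libraries and 6054 to 8594 CPM in NP- libraries. Pecam1, which encodes CD31, was at 3812, 2815 and 3245 CPM in NP+ libraries, against 1931, 2303 and 2825 CPM in NP- libraries. Ptprc, which encodes CD45, was at 3.71, 5.61 and 4.14 CPM in NP+ libraries, against 10.2, 25.7 and 5.89 CPM in NP- libraries. Across genes, the correlation of log CPM was 0.959 to 0.970 between NP+ libraries and 0.832 to 0.876 between NP- libraries, so the NP- libraries differed more from each other. The summed level of 10 fibroblast and mural markers was 26.3 to 101 CPM in NP+ libraries and 97.8 to 4390 CPM in NP- libraries, with MET-106 the highest. That of 10 epithelial markers was 9.44 to 15.7 CPM in NP+ libraries and 19.3 to 638 CPM in NP- libraries, again with MET-106 the highest. That of 8 lymphatic endothelial markers was 449 to 514 CPM in NP+ libraries and 323 to 2212 CPM in NP- libraries, with MET-107 the highest.

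No member passed an adjusted p of 0.05 in either direction under edgeR's quasi-likelihood test, where 0.0125% of the 23989 genes tested were called higher and 0.0167% lower in NP+ cells. At an unadjusted p under 0.05, 6 of the 33 tested members were higher in NP+ cells and 0 were lower. They are Pdia3, Calr, Canx, Erap1, Tap1 and Tap2, all of the transport and loading group. Over all tested genes the shares at that threshold were 8.01% higher and 15.4% lower. Leaving out 1 library gave 3 members higher (without the NP+ library of MET-107, with 6.11% of all genes higher) to 9 (without the NP- library of MET-108, with 10% higher). The members are abundant genes, however, and abundant genes leaned towards NP+. Among the 10825 genes with a mean of at least 5 CPM, 17.5% were higher and 5.48% lower, and of the 29 members with such a mean, 6 (20.7%) were higher. The median log2 fold change of NP+ over NP- was 0.31 for the 33 members, against -0.29 for all tested genes and 0.24 for genes of at least 5 CPM. By that share and that median, the members as a whole list stood near the genes of at least 5 CPM. Of the 29 members with such a mean, 93.1% had a fold change above 0, against 73.0% of those genes. The genes were not matched to the members in abundance beyond that floor. DESeq2 called 3 members higher at an adjusted p under 0.05 (Pdia3, Calr and Tap1), where it called 3.96% of all tested genes. Limma-voom called 0 members at that threshold, where it called 0.05% of genes, and 7 at an unadjusted p under 0.05, where it called 9.26%.

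**Figure D1:**
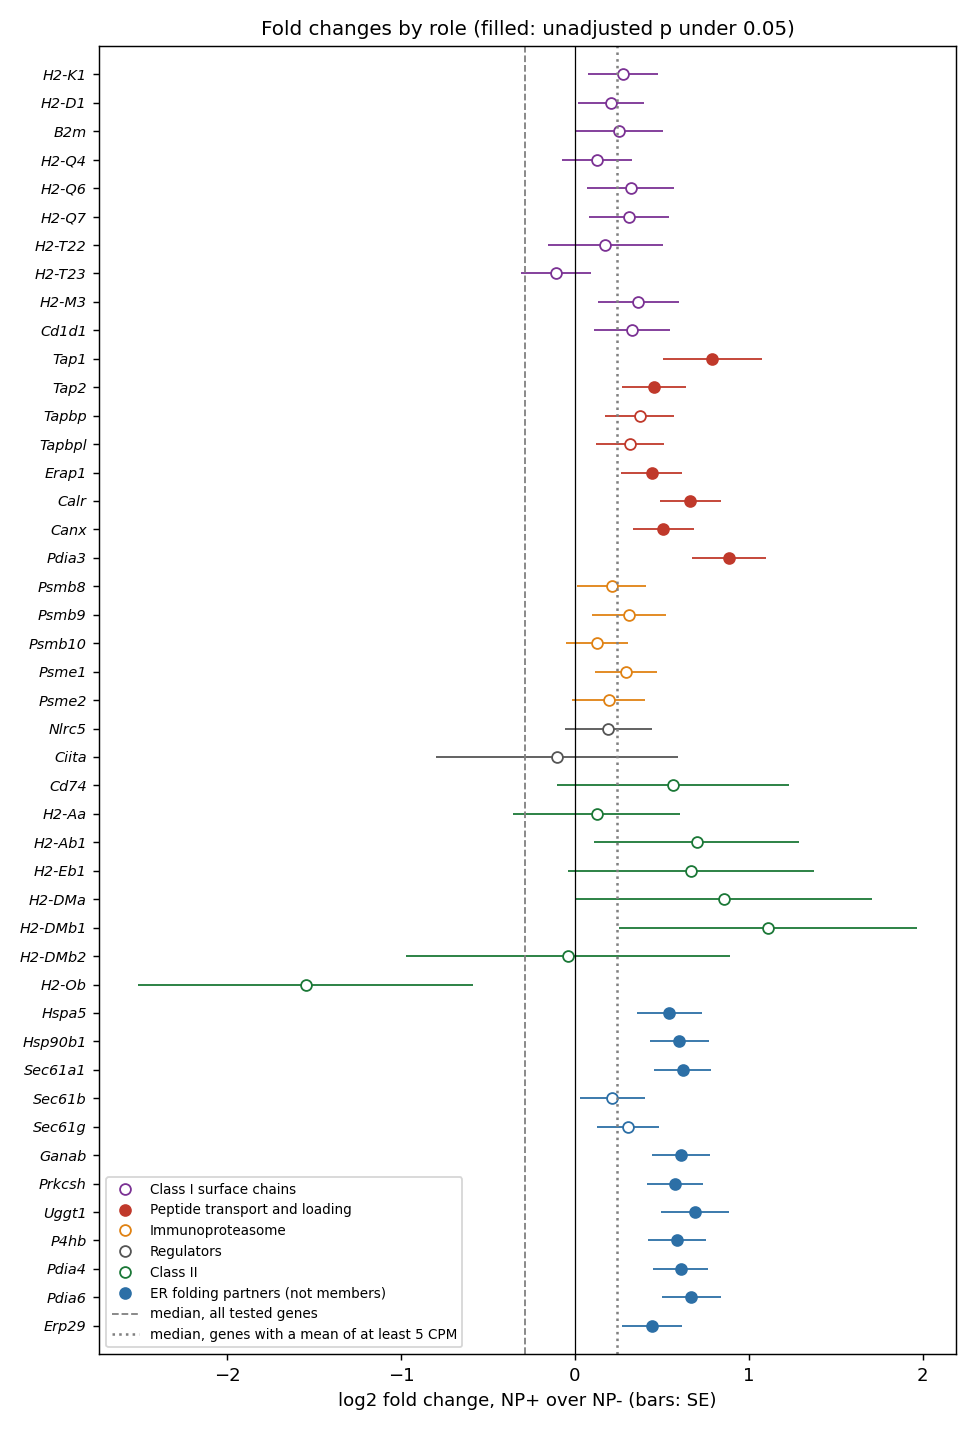
Each point is the log2 fold change of NP+ over NP- of 1 gene (horizontal axis), with its SE as a bar, for the 33 tested members by role and for 12 ER folding genes that are not members. Filled points have an unadjusted p under 0.05: 6 of the 8 loading genes and 10 of the 12 folding genes are filled, no other member is, and the class II genes have the longest bars. With upper-quartile scaling 1 of the 8 and 2 of the 12 pass that threshold.

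None of the 10 class I surface chains passed an unadjusted p of 0.05. With TMM scaling 9 had a fold change above 0, but under upper-quartile scaling, total-count scaling or a 5 CPM filter that of H2-D1 was below 0, and under total-count scaling those of H2-K1 and B2m were too. H2-K1 and H2-D1, the classical class I heavy chains present in the reference, show peptides to CD8 T cells. H2-K1 was at 1703, 2132 and 1816 CPM in NP+ libraries, against 1705, 1223 and 1737 CPM in NP- libraries, a log2 fold change of 0.28 ± 0.20 (SE; adjusted p = 0.408, edgeR). H2-D1 was at 5080, 6237 and 5768 CPM in NP+ libraries, against 5574, 4173 and 5050 CPM in NP- libraries, a log2 fold change of 0.21 ± 0.19 (SE; adjusted p = 0.512, edgeR). For both genes the groups overlapped, and the lowest of the 6 values was that of the NP- library of MET-107. B2m encodes beta-2-microglobulin, the light chain that all these heavy chains need at the surface. It was at 2152, 3507 and 2424 CPM in NP+ libraries, against 2854, 1771 and 2149 CPM in NP- libraries (log2 fold change 0.25 ± 0.25, SE; adjusted p = 0.543, edgeR). The highest and the lowest of its 6 values came from the same tumour, MET-107.

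Balb/c mice carry the H-2d haplotype of the MHC, while the reference genome is of C57BL/6, which carries H-2b. Counts of the polymorphic chains depend on how well H-2d reads map to H-2b alleles, which was not tested, but both fractions of a tumour share the haplotype. By length-scaled level (CPM per kilobase of exon), B2m was the most abundant member at 3133 ± 833 in NP+ and 2626 ± 639 in NP- cells (SD, n = 3 each). H2-D1 followed at 2208 ± 226 in NP+ and 1913 ± 274 in NP- cells, and these levels overlapped those of B2m within 1 SD. H2-K1 was at 722 ± 85.3 in NP+ and 596 ± 111 in NP- cells on the same scale, and Pdia3 at 537 ± 20.9 in NP+ and 290 ± 73.0 in NP- cells. These 2 were more than 1 SD apart in both fractions.

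Among the nonclassical chains, H2-M3, which presents formylated peptides, was at 59.5, 65.1 and 60.5 CPM in NP+ libraries, against 58.0, 33.0 and 52.7 CPM in NP- libraries. Its groups did not overlap, but its log2 fold change of 0.36 ± 0.23 (SE) had an adjusted p of 0.352 (edgeR). Cd1d1, which presents lipids to natural killer T cells, was at 62.1, 62.1 and 60.3 CPM in NP+ libraries, against 36.3, 50.8 and 59.8 CPM in NP- libraries. Its NP+ values lay within 2 CPM of each other and just above the highest NP- value (log2 fold change 0.33 ± 0.22, SE; adjusted p = 0.364, edgeR). The other chains, H2-Q4, H2-Q6, H2-Q7, H2-T22 and H2-T23, had log2 fold changes between -0.11 and 0.32, and the groups of each overlapped. Of windows of 150 bases in their transcripts, 5.99% in H2-Q6, 5.90% in H2-Q7 and 4.64% in Cd1d1 were also found in a paralog, so these counts are uncertain. For H2-T22, 29.4% of exonic bases overlap a gene on the other strand, and the kit does not mark strand.

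For the class I chains except Cd1d1 and H2-T23, the fractions differed most in MET-107. In that tumour the NP+ over NP- ratio was 1.74 for H2-K1, 1.49 for H2-D1 and 1.98 for B2m, whereas in MET-106 it was 0.999, 0.911 and 0.754 and in MET-108 it was 1.04, 1.14 and 1.13. The ratio of Cd1d1 was 1.71, 1.22 and 1.01, and that of H2-T23 was 0.688, 1.31 and 0.862, both farthest from 1 in MET-106 on a log scale. Over the 10 chains, the summed level was 9809, 13050 and 10988 CPM in NP+ libraries, against 11174, 7875 and 9934 CPM in NP- libraries. Of the 10 chains, 8 had their lowest value of all 6 libraries in the NP- library of MET-107, as did 29.7% of genes of at least 5 CPM. That library also had the fewest counts and the highest lymphatic endothelial markers, and their part in the result was not tested. Without it, the log2 fold change was 0.14 for H2-K1, 0.11 for H2-D1 and 0.12 for B2m. Of 11 other class I chains and relatives, 1 was higher and 0 lower at an unadjusted p under 0.05. The shares of all tested genes were 8.01% and 15.4%. The higher gene was Cd1d2, a paralog of Cd1d1. It was at 39.9, 39.4 and 39.5 CPM in NP+ libraries, against 19.4, 17.3 and 30.3 CPM in NP- libraries (adjusted p = 0.144, edgeR).

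**Figure D2:**
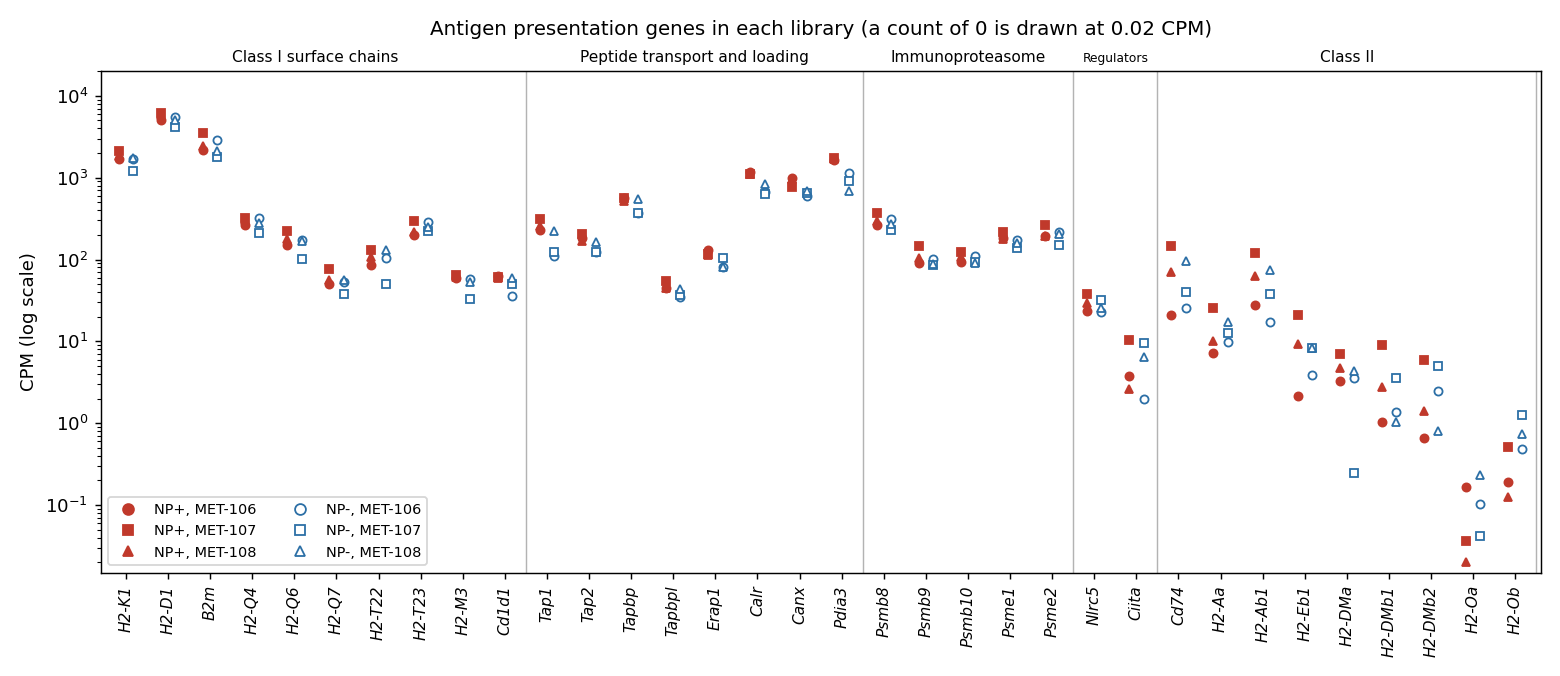
CPM of the 34 members on a log scale, grouped by role, with filled red symbols for the 3 NP+ libraries and open blue symbols for the 3 NP- libraries, and 1 symbol shape for each tumour. The class I, loading and immunoproteasome genes lie close together between libraries, whereas the class II genes spread widely among NP+ libraries. The NP+ library of MET-107 is on top of the NP+ values for all 8 class II genes that were tested. Among NP- libraries the contrast is less even: the highest over the lowest is 1.72 for H2-Aa and 2.13 for H2-Eb1, against 2.61 for the class I chain H2-T22.

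All the members past an unadjusted p of 0.05 were genes of peptide transport and loading. All 8 genes of the group had a fold change above 0, with a median log2 fold change of 0.48. The median of the class II genes was larger, 0.62, but their values were far more spread. In 7 of the 8 loading genes (Tapbp is the exception) the 3 NP+ values lay above the 3 NP- values, as they did for 13.3% of all tested genes and 27.3% of those of at least 5 CPM. Their summed level was 4969, 4907 and 4845 CPM in NP+ libraries, against 3136, 2939 and 3266 CPM in NP- libraries. These are levels of RNA in sorted cells in bulk, in which fewer cells of a type and less RNA per cell cannot be told apart.

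Pdia3 (ENSMUSG00000027248, chr2:121413775-121438687, plus strand, GRCm38) encodes ERp57, an oxidoreductase that is disulfide-linked to tapasin in the loading complex and also folds other glycoproteins. It was at 1631, 1759 and 1669 CPM in NP+ libraries, against 1146, 899 and 688 CPM in NP- libraries. The groups were far apart, and the NP+ libraries varied less than the NP- libraries. Its log2 fold change was 0.89 ± 0.21 (SE; adjusted p = 0.117, edgeR), and the NP+ over NP- ratio within the 3 tumours was 1.42, 1.96 and 2.43. Without the NP- library of MET-106, when 3.48% of genes were called higher, its adjusted p was 0.0241 (edgeR), and over all alternatives it ran from 0.00666 to 0.413. Its unadjusted p was under 0.05 in 17 of 17 alternatives, 1 of which reran the main test on the same counts of fewer genes.

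Calr (ENSMUSG00000003814, chr8:84841850-84846934, minus strand) encodes calreticulin, a soluble lectin chaperone that holds the heavy chain and B2m for loading. It was at 1175, 1109 and 1100 CPM in NP+ libraries, against 670, 631 and 837 CPM in NP- libraries. All 3 NP+ values lay above all 3 NP- values, with a log2 fold change of 0.66 ± 0.18 (SE; adjusted p = 0.126, edgeR). Canx (ENSMUSG00000020368, chr11:50293961-50325673, minus strand) encodes calnexin, the membrane-bound relative that binds newly made heavy chains first. It was at 1002, 777 and 971 CPM in NP+ libraries, against 598, 652 and 683 CPM in NP- libraries. The groups did not overlap, with a log2 fold change of 0.51 ± 0.17 (SE; adjusted p = 0.154, edgeR).

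Tap1 (ENSMUSG00000037321, chr17:34187553-34197225, plus strand) and Tap2 (ENSMUSG00000024339, chr17:34203527-34216321, plus strand) encode the paired chains of the peptide transporter. Tap1 was at 227, 312 and 254 CPM in NP+ libraries, against 110, 123 and 225 CPM in NP- libraries. Its highest NP- value, in MET-108, lay just below its lowest NP+ value, in MET-106, and the fractions were farther apart in MET-106 and MET-107 than in MET-108. The log2 fold change was 0.79 ± 0.28 (SE; adjusted p = 0.165, edgeR), and without the NP- library of MET-108, when 0.428% of genes were called higher, it was 1.20 (adjusted p = 0.0398, edgeR). Over all alternatives its adjusted p ran from 0.0249 to 0.476. Tap2 was at 186, 206 and 169 CPM in NP+ libraries, against 124, 123 and 163 CPM in NP- libraries. Its groups did not overlap and its log2 fold change was 0.45 ± 0.18 (SE; adjusted p = 0.189, edgeR). Of its exonic bases, 14.1% overlap a gene on the other strand.

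Erap1 (ENSMUSG00000021583, chr13:74639872-74691875, plus strand) encodes the ER aminopeptidase that trims peptides to the length class I binds. It was at 130, 118 and 114 CPM in NP+ libraries, against 81.5, 104 and 81.6 CPM in NP- libraries. The groups did not overlap, with a log2 fold change of 0.44 ± 0.18 (SE; adjusted p = 0.185, edgeR). Erap1 and Tap2 were past an unadjusted p of 0.05 in edgeR's test without the tumour block (0.0345 and 0.0363) but not with it (0.0645 and 0.0689). With the block 4 members, Pdia3, Calr, Canx and Tap1, were past that threshold, as were 7.85% of all tested genes in that direction.

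Tapbp encodes tapasin, which bridges the transporter and the heavy chain. It was at 572, 572 and 524 CPM in NP+ libraries, against 373, 370 and 546 CPM in NP- libraries (log2 fold change 0.37 ± 0.20, SE; adjusted p = 0.282, edgeR). The NP- library of MET-108 lay among its NP+ values, and the other NP- libraries lay below them. Of the exonic bases of Tapbp, 20.2% overlap a gene on the other strand. Tapbpl, which encodes a tapasin relative that edits peptides outside the loading complex, was lower in level, at 44.4 to 54.4 CPM in NP+ libraries and 34.4 to 43.5 CPM in NP- libraries. Its groups did not overlap, with a log2 fold change of 0.32 ± 0.20 (SE; adjusted p = 0.338, edgeR).

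Calr, Canx and Pdia3 also serve the general folding of glycoproteins, so 12 further genes of ER translocation and folding were set beside them. None of the 12 passed an adjusted p of 0.05, and 10 were higher and 0 lower at an unadjusted p under 0.05 (edgeR), with a median log2 fold change of 0.59. The unadjusted shares were 8.01% and 15.4% of all tested genes, and 17.5% and 5.48% of those of at least 5 CPM. DESeq2 called 8 of the 12 higher at an adjusted p under 0.05, where it called 3.96% of all tested genes. Pdia6, a disulfide isomerase, was at 916, 843 and 944 CPM in NP+ libraries, against 617, 486 and 595 CPM in NP- libraries (log2 fold change 0.67 ± 0.17, SE; adjusted p = 0.123, edgeR). Pdia4, another disulfide isomerase, Sec61a1, a subunit of the translocon, and Ganab, a subunit of a glucosidase, had log2 fold changes of 0.61, 0.62 and 0.61 (adjusted p of 0.125, 0.126 and 0.127, edgeR). Hspa5, which encodes the chaperone BiP, was at 2877, 2471 and 2874 CPM in NP+ libraries, against 1824, 1621 and 2194 CPM in NP- libraries. It is not a member of the loading complex and is named for its promoter. Its log2 fold change was 0.54 ± 0.19 (SE; adjusted p = 0.155, edgeR). The medians of the loading genes and of the folding genes, 0.48 and 0.59, were not tested against each other. The number of genes past an unadjusted p of 0.05 in both lists moved with the scaling and the filter. Upper-quartile scaling (median of all genes -0.53, 3.27% of genes higher) left 1 of 8 loading and 2 of 12 folding genes. Total-count scaling (median -0.59, 2.54% higher) left 2 of 8 and 1 of 12, and a 5 CPM filter (median -0.02, 6.44% higher) left 2 of 8 and 4 of 12. The median of the loading genes was 0.23, 0.18 and 0.21 in those settings, above that of all genes in each. With no low-count filter (median of all genes -0.69, 6.43% higher), 7 of 8 loading genes and 10 of 12 folding genes passed.

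Because Calr, Canx and Hspa5 stood higher together, the 250 bases before their start sites are shown (RefSeq, GRCm38.p6). Capitals mark the ER stress response element, searched on both strands as CCAAT and CCACG with any 9 bases between them. It is the textbook element through which the unfolded protein response acts on chaperone genes.

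Calr: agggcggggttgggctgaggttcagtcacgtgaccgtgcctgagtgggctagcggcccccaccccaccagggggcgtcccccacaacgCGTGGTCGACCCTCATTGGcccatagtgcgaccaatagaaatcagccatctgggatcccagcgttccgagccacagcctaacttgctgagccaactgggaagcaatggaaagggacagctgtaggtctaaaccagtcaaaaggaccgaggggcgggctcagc
Canx: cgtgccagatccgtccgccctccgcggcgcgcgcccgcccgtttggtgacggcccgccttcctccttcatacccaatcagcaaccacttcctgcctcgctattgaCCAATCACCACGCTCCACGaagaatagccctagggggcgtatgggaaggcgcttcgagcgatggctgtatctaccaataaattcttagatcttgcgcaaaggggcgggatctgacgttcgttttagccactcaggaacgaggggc
Hspa5: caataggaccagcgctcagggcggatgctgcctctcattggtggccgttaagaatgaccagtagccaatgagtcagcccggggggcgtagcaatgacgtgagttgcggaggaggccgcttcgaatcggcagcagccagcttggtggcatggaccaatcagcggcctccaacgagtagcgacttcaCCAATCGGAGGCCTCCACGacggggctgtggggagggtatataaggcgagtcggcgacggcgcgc

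The windows are chr8:84846932-84847181 (minus strand), chr11:50325674-50325923 (minus strand) and chr2:34771840-34772089 (plus strand). The element stood in 0.113% of 32851 promoter windows of the same length. Among members it was in Calr and Canx of the 27 with a promoter in the table, and among the folding genes in Hspa5, Hsp90b1 and Pdia6 of 10. The window of Calr holds it on the opposite strand from Canx and Hspa5, with 143 bases between the match and the start site, against 126 in Canx and 46 in Hspa5. The windows of Pdia3 and Tap1 do not hold these letters. A match describes the sequence and shows no binding.

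The promoters of the class I chains were searched for other motifs. The H2-K1 window (chr17:34000348-34000597, minus strand) is shown with 3 overlapping or adjacent matches to a kappaB motif in capitals, searched on both strands as GGG and CCC with 4 bases between them of which the third is T. The B2m window (chr2:122147437-122147686, plus strand) is shown with 1 match to an interferon-stimulated response element in capitals, searched on both strands as GAAA repeated after any 2 bases.

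H2-K1: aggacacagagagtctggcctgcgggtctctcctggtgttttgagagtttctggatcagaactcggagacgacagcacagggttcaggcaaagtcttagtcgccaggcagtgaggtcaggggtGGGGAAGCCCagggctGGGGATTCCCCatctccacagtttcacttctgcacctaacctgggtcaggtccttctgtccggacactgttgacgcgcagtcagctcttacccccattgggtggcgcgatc
B2m: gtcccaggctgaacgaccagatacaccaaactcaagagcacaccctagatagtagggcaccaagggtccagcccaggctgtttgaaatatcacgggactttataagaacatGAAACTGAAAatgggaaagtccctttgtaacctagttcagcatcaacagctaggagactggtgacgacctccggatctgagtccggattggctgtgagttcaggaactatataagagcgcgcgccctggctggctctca

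H2-D1 holds the same 3 kappaB matches. That motif was in 9 of 27 members' windows and in 4.29% of all windows, and 0 of 10 folding genes held it. The 9 are H2-K1, H2-D1, H2-Q4, H2-Q6, H2-Q7, H2-Aa, H2-Oa, Psme2 and Calr, so it was not limited to class I chains, and Calr held it beside the ER element. The interferon element, in the letters searched, was in B2m, H2-T23 and H2-T22 of the 27, and in 2.98% of all windows. Other forms of it were not searched, so its absence from other windows, H2-K1 and H2-D1 among them, was not shown. The ER element, found in Calr and Canx, was in no class I chain. The MHC genes are tandem copies, so their shared letters are not independent.

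None of the 5 immunoproteasome genes passed an unadjusted p of 0.05. Psmb8, Psmb9 and Psmb10 encode the catalytic subunits that replace Psmb5, Psmb6 and Psmb7 after interferon-gamma, and Psme1 and Psme2 encode the PA28 activator. Psmb8 was at 264, 375 and 299 CPM in NP+ libraries, against 311, 229 and 271 CPM in NP- libraries (log2 fold change 0.21 ± 0.20, SE; adjusted p = 0.519, edgeR). Psmb9 was at 90.2, 147 and 104 CPM in NP+ libraries, against 100, 86.3 and 88.6 CPM in NP- libraries (log2 fold change 0.31 ± 0.21, SE; adjusted p = 0.381, edgeR). Psmb10 was at 94.4, 122 and 106.3 CPM in NP+ libraries, against 110, 94.5 and 91.0 CPM in NP- libraries (log2 fold change 0.13 ± 0.18, SE; adjusted p = 0.673, edgeR). In all 3 genes the groups overlapped. The NP+ library of MET-107 was the highest of 6 in all 5 immunoproteasome genes, and in 13.2% of genes of at least 5 CPM. Psme1 was at 181, 220 and 177 CPM in NP+ libraries, against 176, 136 and 160 CPM in NP- libraries, and its lowest NP+ value was just above its highest NP- value (log2 fold change 0.29 ± 0.18, SE; adjusted p = 0.332, edgeR). Psme2 had a log2 fold change of 0.20 with overlapping groups, and 12.1% of its windows are shared with Psme2b. Under upper-quartile scaling, total-count scaling or a 5 CPM filter the fold changes of Psmb8 and Psmb10 were below 0.

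The make-up of the proteasome was compared as ratios of an inducible to a constitutive subunit, in length-scaled levels. Psmb8 over Psmb5 was 0.955 ± 0.099 in NP+ and 1.05 ± 0.083 in NP- cells (SD, n = 3 each; exact two-sided permutation p = 0.3). Psmb9 over Psmb6 was 0.185 ± 0.031 in NP+ and 0.180 ± 0.014 in NP- cells (SD, n = 3 each; exact two-sided permutation p = 0.8). Psmb10 over Psmb7 was 2.42 ± 0.17 in NP+ and 2.83 ± 0.45 in NP- cells (SD, n = 3 each; exact two-sided permutation p = 0.3). The groups of all 3 ratios overlapped. Psme1 over Psme3 was 1.95 ± 0.47 in NP+ and 3.20 ± 1.34 in NP- cells (SD, n = 3 each; exact two-sided permutation p = 0.3). With 3 against 3 libraries the smallest p such a test can give is 0.1, and 9 ratios were computed. Of 18 constitutive proteasome genes and regulators, 2 were higher and 0 lower at an unadjusted p under 0.05. The shares were 8.01% and 15.4% of all tested genes, and 17.5% and 5.48% of those of at least 5 CPM. Psme3, which encodes a nuclear activator (PA28 gamma), was at 148, 118 and 136 CPM in NP+ libraries, against 95.8, 75.8 and 44.9 CPM in NP- libraries (adjusted p = 0.142, edgeR). Psma6, a subunit of the core, was at 325, 377 and 339 CPM in NP+ libraries, against 279, 221 and 237 CPM in NP- libraries (adjusted p = 0.153, edgeR).

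Other ratios set loading genes against the chains they load. Pdia3 over the sum of H2-K1 and H2-D1, in CPM, was 0.224 ± 0.015 in NP+ and 0.142 ± 0.035 in NP- cells. Calr over that sum was 0.150 ± 0.021 in NP+ and 0.111 ± 0.017 in NP- cells, and Tap1 over it was 0.0348 ± 0.0022 in NP+ and 0.0237 ± 0.0091 in NP- cells (SD, n = 3 each). For each of these the groups did not overlap, and the exact two-sided permutation p was 0.1, the smallest possible, or 0.3 when adjusted over 9 ratios. For Tap1 the gap was narrow, with 0.0334 the lowest NP+ and 0.0332 the highest NP- value. Pdia3, Calr and Tap1 are also the members that DESeq2 called higher in the same libraries, so their ratios add no separate support. The other loading genes were not set against this sum. B2m over the same sum was 0.352 ± 0.058 in NP+ and 0.346 ± 0.041 in NP- cells (SD, n = 3 each; exact two-sided permutation p = 0.8). These ratios do not depend on the scaling between libraries.

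Tap1 and Psmb9 lie head to head in the MHC, with 225 bases between their RefSeq start sites. Their fold changes were 0.79 for Tap1 and 0.31 for Psmb9 on the log2 scale. Tap1 over Psmb9, in CPM, was 2.52, 2.12 and 2.43 in NP+ libraries, against 1.10, 1.43 and 2.54 in NP- libraries (exact two-sided permutation p = 0.4). The NP- libraries of MET-106 and MET-107 were low, and that of MET-108 was as high as the NP+ libraries. The genes share 212 exonic bases on opposite strands, whose reads cannot be assigned without strand.

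The regulators were low in level, and neither passed an unadjusted p of 0.05. Nlrc5, the transactivator of class I genes, was at 23.8, 37.5 and 29.8 CPM in NP+ libraries, against 22.7, 31.6 and 25.5 CPM in NP- libraries. Its NP+ over NP- ratio was 1.05 to 1.18 within tumours, above 1 in all 3 as for 39.7% of genes of at least 5 CPM, and MET-107 was the highest tumour in both fractions (log2 fold change 0.19 ± 0.25, SE; adjusted p = 0.644, edgeR). Under total-count scaling its fold change was -0.10, and it was also below 0 under upper-quartile scaling or a 5 CPM filter. Ciita, the transactivator that class II genes require, was at 3.79, 10.4 and 2.58 CPM in NP+ libraries, against 1.96, 9.65 and 6.49 CPM in NP- libraries. It too was highest in MET-107 in both fractions, and the fractions differed in opposite directions in MET-106 and MET-108 (log2 fold change -0.10 ± 0.70, SE; adjusted p = 0.935, edgeR).

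Of 12 genes of the interferon-gamma axis, 3 were higher and 0 lower at an unadjusted p under 0.05, and none passed the adjusted threshold (edgeR). At that unadjusted threshold 8.01% of all tested genes were higher and 15.4% lower. Among genes of at least 5 CPM the shares were 17.5% and 5.48%. Jak1, a kinase of the interferon receptors, was at 1074, 834 and 898 CPM in NP+ libraries, against 615, 566 and 356 CPM in NP- libraries (adjusted p = 0.127, edgeR). Irf8, an interferon regulatory factor, was at 85.6, 99.3 and 96.2 CPM in NP+ libraries, against 36.3, 45.7 and 70.2 CPM in NP- libraries (adjusted p = 0.134, edgeR). Ifngr2, a chain of the interferon-gamma receptor, was at 153, 132 and 123 CPM in NP+ libraries, against 106.8, 25.8 and 17.5 CPM in NP- libraries (adjusted p = 0.191, edgeR). All 3 genes had groups that did not overlap, as had 4 of the 12 in this direction. The shares were 13.3% of all tested genes and 27.3% of those of at least 5 CPM. Socs3, an inhibitor of cytokine signalling, had a log2 fold change of 0.52 ± 0.25 (SE; adjusted p = 0.240, edgeR).

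The class II genes stood far below H2-D1 in level, and their values varied widely among NP+ libraries. The median of the highest value over the lowest was 5.67 in NP+ and 3.65 in NP- libraries. In NP- libraries H2-Aa (1.72) and H2-Eb1 (2.13) varied less. Of the 8 tested, 6 had a fold change above 0 and none passed an unadjusted p of 0.05 in either direction. H2-Ab1, the beta chain of I-A, was at 28.1, 120 and 62.6 CPM in NP+ libraries, against 17.3, 37.7 and 74.8 CPM in NP- libraries (log2 fold change 0.70 ± 0.59, SE; adjusted p = 0.472, edgeR). H2-Aa, its alpha chain, was at 7.14, 25.8 and 10.1 CPM in NP+ libraries, against 9.94, 12.5 and 17.1 CPM in NP- libraries (log2 fold change 0.13 ± 0.48, SE; adjusted p = 0.883, edgeR). In both chains MET-107 was the highest of the NP+ libraries and MET-108 the highest of the NP- libraries. H2-Eb1, the beta chain of I-E, was at 2.14, 21.1 and 9.28 CPM in NP+ libraries, against 3.93, 8.36 and 8.24 CPM in NP- libraries (log2 fold change 0.67 ± 0.71, SE; adjusted p = 0.565, edgeR). Cd74, the invariant chain that guides class II to endosomes, was at 20.9, 147 and 70.4 CPM in NP+ libraries, against 25.2, 39.7 and 96.5 CPM in NP- libraries (log2 fold change 0.57 ± 0.67, SE; adjusted p = 0.610, edgeR). Both had their highest value in the NP+ library of MET-107 and overlapping groups. Without that library the log2 fold change was -0.19 for Cd74, -0.57 for H2-Aa, -0.21 for H2-Eb1 and 0.11 for H2-Ab1. With the tumour as a block that of H2-Aa was -0.075. Of 17 alternatives, the unadjusted p was under 0.05 in 4 for H2-Ab1, 1 for Cd74, 1 for H2-Eb1 and 0 for H2-Aa. For Cd74 and H2-Eb1 it was the fit without the NP+ library of MET-106, where 3.91% of all genes were higher.

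H2-DMa and H2-DMb1 encode the dimer that exchanges peptides on class II. H2-DMa was at 3.27, 6.99 and 4.67 CPM in NP+ libraries, against 3.61, 0.249 and 4.34 CPM in NP- libraries (log2 fold change 0.86 ± 0.85, SE; adjusted p = 0.539, edgeR). The NP- library of MET-107 was far below the others, and without it the log2 fold change was 0.33. H2-DMb1 was at 1.04 to 9.14 CPM in NP+ libraries and 1.04 to 3.62 CPM in NP- libraries. Its paralog H2-DMb2 was at 0.659 to 5.97 CPM in NP+ libraries and 0.807 to 5.03 CPM in NP- libraries. The paralogs share 4.71% of the windows of H2-DMb1, and their groups overlapped. H2-Oa and H2-Ob encode a dimer that restrains H2-DM, chiefly in B cells. H2-Ob was at 0.125 to 0.510 CPM in NP+ libraries and 0.480 to 1.25 CPM in NP- libraries, the only tested member that was lower in NP+ cells of all 3 tumours, as were 30.2% of all tested genes (adjusted p = 0.338, edgeR). H2-Oa had 6, 2 and 0 reads in NP+ libraries, against 5, 1 and 7 reads in NP- libraries.

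**Figure D3:**
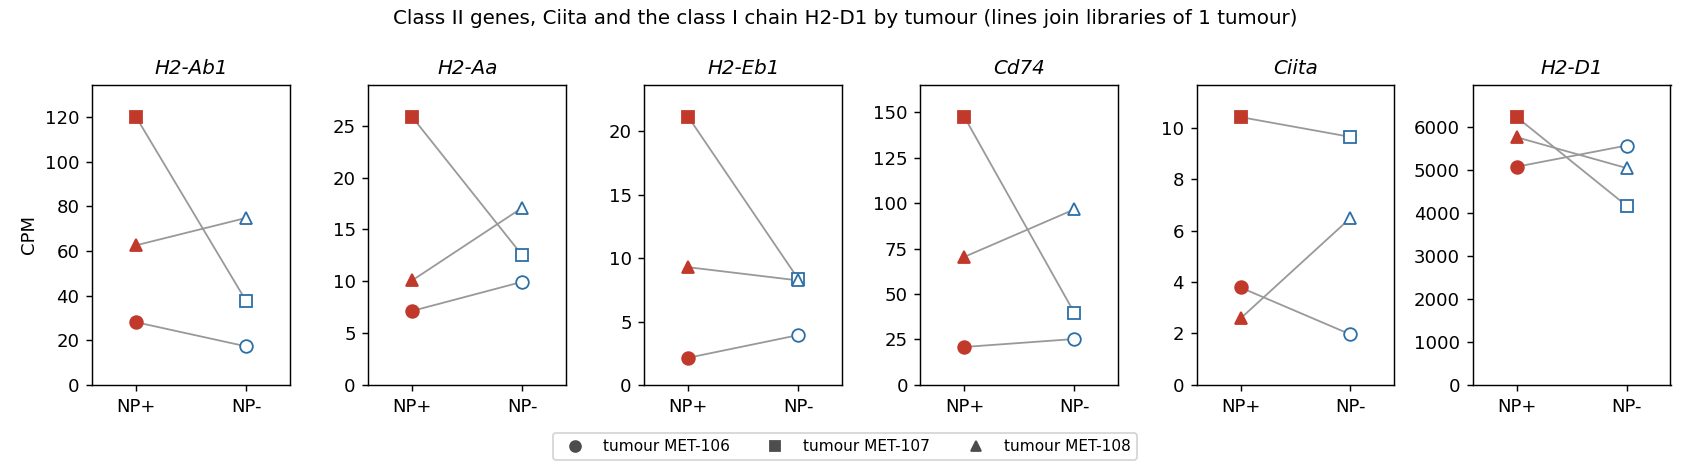
CPM of 4 class II genes, of Ciita and of the class I chain H2-D1 (vertical axes, each from 0), with NP+ on the left and NP- on the right of each panel, and grey lines joining the 2 libraries of a tumour. The class II lines cross, and H2-Ab1 spans 28.1 to 120 CPM among NP+ libraries, whereas H2-D1 spans 5080 to 6237 CPM there.

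The spread within NP+ cells set class II apart from class I. Among the NP+ libraries, the highest value over the lowest was 4.27 for H2-Ab1, 3.62 for H2-Aa, 9.87 for H2-Eb1, 7.06 for Cd74 and 4.03 for Ciita. For the other 24 members with a mean of at least 5 CPM it was at most 1.63. Of all 10825 genes at that level, 1.37% reached a ratio of 3 among NP+ libraries, and their median was 1.26. The NP+ library of MET-107 was the highest of the 3 NP+ libraries in 24 of those 29 members, and in 24.5% of all genes at that level. It is also the deepest library, and the part of depth was not tested. Together the class II genes summed to 63.6, 337 and 161 CPM in NP+ libraries, against 64.4, 108.4 and 204 CPM in NP- libraries. The order of tumours thus differed between the fractions, with MET-107 the highest in NP+ cells and MET-108 the highest in NP- cells. Choosing these libraries followed from their values, so the order is a description with no test.

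Markers of B cells, macrophages and other leukocytes were low beside those of endothelium. The summed level of 10 B cell markers was 3.95 to 6.94 CPM in NP+ libraries and 14.0 to 19.4 CPM in NP- libraries, and 4 of the 10 had no read in at least 1 library. That of 12 macrophage markers was 24.1 to 33.3 CPM in NP+ libraries and 44.0 to 130 CPM in NP- libraries, with C1qc at 0 in 1 library. That of 10 leukocyte markers was 51.9 to 59.6 CPM in NP+ libraries and 63.7 to 105.8 CPM in NP- libraries. Within NP+ cells the macrophage sum was 32.1, 33.3 and 24.1 CPM and the leukocyte sum 51.9, 59.6 and 56.8 CPM. The B cell sum was 3.95, 6.94 and 4.42 CPM, so these sums were highest in MET-107 among NP+ libraries, as the class II sum was. The T and NK cell sum (6.95, 6.45 and 6.40 CPM) and the dendritic cell sum (399, 387 and 386 CPM) were highest in MET-106. Among NP- libraries the class II sum was highest in MET-108. There the macrophage sum (130, 77.2 and 44.0 CPM) and the leukocyte sum (77.7, 105.8 and 63.7 CPM) were lowest. For macrophages that order was set by Lyz2 (95.0, 34.8 and 6.29 CPM), and other genes of the list differed. Cd68 was highest in MET-108 (9.34, 5.70 and 16.0 CPM) and Mrc1 in MET-107 (2.74, 14.3 and 3.40 CPM). The B cell sum (14.0, 19.4 and 14.4 CPM) was highest in MET-107. The dendritic cell list of 12 genes summed to 386 to 399 CPM in NP+ libraries and 164 to 284 CPM in NP- libraries, but Fscn1, Irf8 and Zbtb46, which other cells express too, made up most of it. Itgax and Flt3 were at 0.247 to 1.51 and 0.376 to 0.892 CPM in NP+ libraries, against 0.397 to 7.44 and 1.17 to 7.44 CPM in NP- libraries, and Clec10a was at 0 in 1 library. Clec9a, a receptor of cross-presenting dendritic cells, was at 8.73, 7.23 and 6.65 CPM in NP+ libraries, against 5.12, 7.23 and 11.8 CPM in NP- libraries, and the groups overlapped. Batf3, a transcription factor of the same cells, was at 11.3, 12.1 and 10.3 CPM in NP+ libraries, against 10.5, 7.11 and 4.51 CPM in NP- libraries. Its groups overlapped, although NP+ was the higher in each tumour (adjusted p = 0.339, edgeR). The other 4 (Xcr1, Cd209a, Siglech and Ccr7) were at 0.125 to 1.35 CPM in NP+ libraries and 0.457 to 3.95 CPM in NP- libraries. The T and NK cell list of 10 genes summed to 6.40 to 6.95 CPM in NP+ libraries and 13.2 to 39.6 CPM in NP- libraries. The part of such cells in the class II values was not tested.

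**Figure D4:**
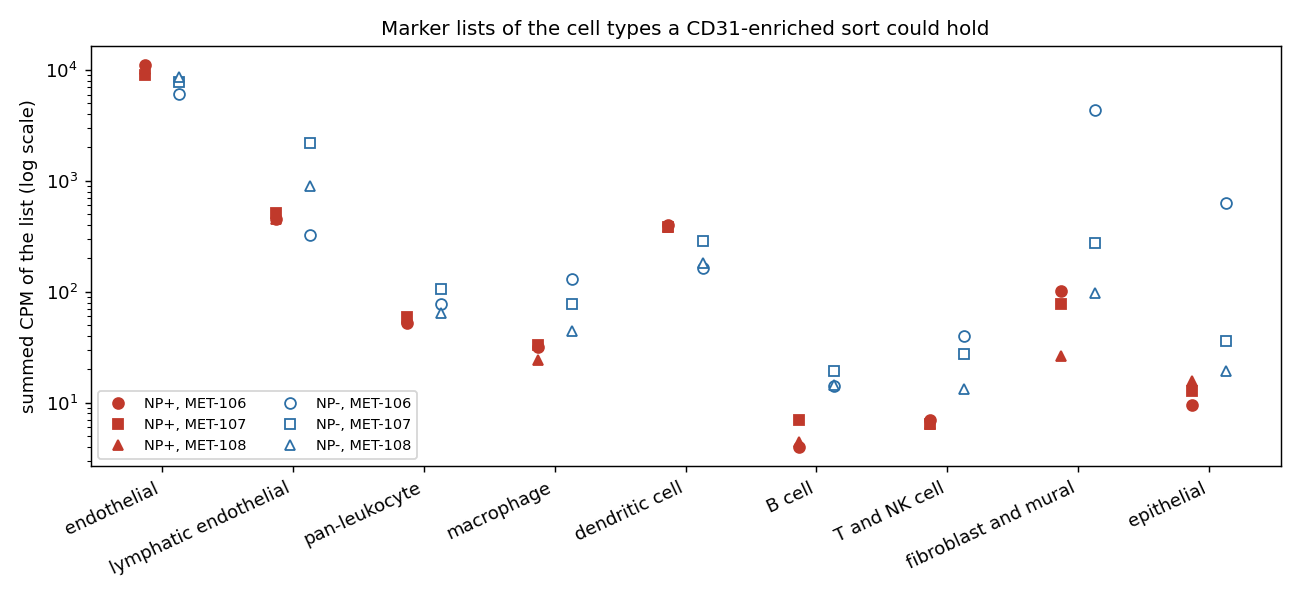
Summed CPM of 9 marker lists (vertical axis, log scale) in each library, with filled red symbols for NP+ and open blue symbols for NP- libraries and 1 shape for each tumour. Leukocyte, macrophage, B cell and T and NK cell sums are higher in the NP- libraries. In the fibroblast list and in the epithelial list, the NP- library of MET-106 stands above the other libraries.

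Other genes that serve class II were few to pass an unadjusted threshold. Of 9 partners and regulators of class II expression, 2 were higher and 1 lower at an unadjusted p under 0.05, and 0 passed the adjusted threshold (edgeR). The unadjusted shares were 8.01% and 15.4% of all tested genes, and 17.5% and 5.48% of those of at least 5 CPM. March8, a ubiquitin ligase that removes class II from the surface, was at 21.6, 26.9 and 22.2 CPM in NP+ libraries, against 13.9, 15.1 and 13.1 CPM in NP- libraries (adjusted p = 0.145, edgeR). March1, the related ligase of B and dendritic cells, was at 0.220, 1.35 and 0.602 CPM in NP+ libraries, against 1.15, 7.48 and 2.05 CPM in NP- libraries (adjusted p = 0.198, edgeR). Rfxap, a subunit of the factor that recruits Ciita, was at 7.0, 10.2 and 7.43 CPM in NP+ libraries, against 3.78, 2.33 and 4.37 CPM in NP- libraries (adjusted p = 0.154, edgeR). The NP- library of MET-107, which held the most Ptprc, also held the most March1. Nfyc, a subunit of a CCAAT-binding factor, had a log2 fold change of 0.40 ± 0.19 (SE; adjusted p = 0.248, edgeR).

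Of 8 proteases and reductases of the endosomes where class II is loaded, 2 were higher and 1 lower at an unadjusted p under 0.05, and 0 passed the adjusted threshold (edgeR). The unadjusted shares were 8.01% and 15.4% of all tested genes, and 17.5% and 5.48% of those of at least 5 CPM. Lgmn, an asparaginyl endopeptidase, was at 410, 360 and 417 CPM in NP+ libraries, against 300, 285 and 300 CPM in NP- libraries (adjusted p = 0.170, edgeR). Ctsb, a cathepsin of lysosomes in most cells, was at 1689, 1585 and 1814 CPM in NP+ libraries, against 1252, 1146 and 1455 CPM in NP- libraries (adjusted p = 0.209, edgeR). Ctsk, a collagen-cutting cathepsin, was at 2.58, 1.42 and 1.48 CPM in NP+ libraries, against 38.0, 8.61 and 10.9 CPM in NP- libraries (adjusted p = 0.0887, edgeR). The highest value of Ctsk was in the NP- library of MET-106, where the fibroblast markers were also highest. Ifi30, a thiol reductase of endosomes, had a log2 fold change of -0.79 ± 0.42 (SE; adjusted p = 0.281, edgeR).

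In the authors' deposited table, which holds 33 of the members, 3 were higher in NP+ cells at an adjusted p under 0.05 and 0 lower, where the table calls 3.71% of its 25298 genes higher and 9.45% lower. They are Pdia3, Calr and Tap1, with log2 fold changes of NP- over NP+ of -0.95, -0.74 and -0.88 and adjusted p of 0.00998, 0.0161 and 0.0434 in the authors' deposited table. That table states fold changes of NP- over NP+, so a negative value means higher in NP+ cells. These calls rest on the same 6 libraries.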

How the data were processed

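Per the labels' protocols, SMART-Seq v4 made the cDNA of the 6 libraries, and both ends were read for 150 bp. The kit marks neither strand nor molecules. The deposited files hold whole-number read counts per gene. The submitters' processing notes list GRCm38 (mm10), DESeq2, featureCounts in Subread 1.5.2, STAR 2.5.2b and Trimmomatic 0.036. Which annotation was counted, and how strand and multi-mapped reads were treated, is not given in these sources. The authors' deposited table adds normalized values (a signal, counts divided by size factors), log2 fold changes of NP- over NP+, p-values and adjusted p-values. It holds 26071 genes, and dividing out the size factors returned whole reads (tolerance 0.01) for 100% of its values, all equal to the deposited counts. A count test on those reads called 0 members at an adjusted p under 0.05. It reran the main test on the same counts of fewer genes, so it is no separate check.

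The test was edgeR's quasi-likelihood test (edgeR 4.0.16, R 4.3.3) with TMM scaling, filterByExpr (minimum count 10) and Benjamini-Hochberg adjustment over 23989 genes. DESeq2 1.42.0 and limma-voom (limma 3.58.1) were alternatives. CPM use tested counts and TMM factors, and the SE is the fold change divided by the square root of F. Ratios of genes were compared by exact permutation, which ignores the shared tumour. Each NP+ library shares its tumour with an NP- library, per the labels, so the libraries are paired. Deviations from the group means correlated at 0.28, 0.21 and 0.02 between the libraries of a tumour. The scripts were tested on simulated data. The replicates are tumours. The main test has no term for the tumour, so its p-values measure the spread of libraries within each fraction. They do not measure the spread of the differences within tumours. Reads carry no molecular identifiers, and the part of depth in the results was not tested.

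Values per library are given for members with an unadjusted p under 0.05 and for an anchor set of each role, and for up to 4 genes of each other list by smallest p. The members and the lists were chosen with earlier results of these data known. Promoters come from RefSeq tables of GRCm38.p6, and shared transcript windows from GENCODE release M21. Exon overlaps and coordinates come from the count files.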

Additional observations from a re-analysis of the deposited data

How the results depend on the processing

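The 17 alternatives were run for 23 members, and 347 values kept their direction and side of the threshold, 8 newly passed an adjusted p of 0.05 and 34 changed sign. Members higher at an adjusted p under 0.05 numbered 0 with edgeR (0.0125% of all tested genes higher) and 3 with DESeq2 (3.96%). They numbered 3 with DESeq2 and a replicate block, where the adjusted share of all genes was not computed. When a library was left out they numbered 0 to 1. These were Pdia3 without the NP- library of MET-106 (3.48% of genes higher) and Tap1 without that of MET-108 (0.428%). At an unadjusted p under 0.05 they numbered 6 (8.01% of all genes higher), against 4 with the tumour as replicate block in edgeR (7.85%). They numbered 1 with upper-quartile scaling (3.27%) and 2 with total-count scaling (2.54%). With a 5 CPM filter they numbered 2 (6.44%), and 1 with that filter and the block (7.44%). The share of all genes thus also fell with the 2 other scalings. Leaving out a library gave 3 (without the NP+ library of MET-107, with 6.11% of all genes higher) to 9 (without the NP- library of MET-108, with 10% higher). The alternatives with recovered reads and with DESeq2 and the block were added after seeing the data. That with recovered reads used the same counts as the main test and is no separate check.

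None of the members whose log2 fold change turned had passed an unadjusted p of 0.05 in the main fit. In the alternatives Cd74 and H2-Eb1 passed it in 1 of 17 each, without the NP+ library of MET-106. With upper-quartile scaling they were -0.10 for H2-Aa, -0.030 for H2-D1, -0.047 for Nlrc5, -0.11 for Psmb10 and -0.021 for Psmb8. With total-count scaling they were -0.024 for B2m, -0.14 for H2-Aa, -0.081 for H2-D1, -0.0098 for H2-K1, -0.10 for Nlrc5, -0.17 for Psmb10 and -0.074 for Psmb8. With the 5 CPM filter they were -0.12 for H2-Aa, -0.052 for H2-D1, -0.075 for Nlrc5, -0.14 for Psmb10 and -0.044 for Psmb8, and with the block added -0.34 for H2-Aa, -0.057 for H2-D1, -0.090 for Nlrc5, -0.15 for Psmb10, -0.063 for Psmb8, -0.021 for B2m and -0.047 for H2-Eb1. With the replicate block H2-Aa was at -0.075 in edgeR and -0.021 in DESeq2. Ciita was at 0.21 with limma-voom and 0.15 with no filter. Leaving out a library gave -0.87 to 0.42 for Ciita, -0.19 to 1.32 for Cd74, -0.57 to 0.58 for H2-Aa and -0.21 to 1.31 for H2-Eb1. Another scaling moves every log2 fold change, that of all genes included, by about the same amount. The cause of the other changes, those with the filters among them, was not tested. The SE of the log2 fold change was 0.17 to 0.28 for the loading genes and 0.48 to 0.96 for the class II genes, which sets the size of a difference that 3 tumours could show. Counts of polymorphic and paralogous MHC genes also depend on mapping settings that are not given.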

Other observations

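Some MHC genes outside the 34 were looked up after their values were seen. H2-Ea-ps, named a pseudogene because the H-2b haplotype of the reference does not express it, had reads in these H-2d mice. It was at 0.686, 5.03 and 1.51 CPM in NP+ libraries, against 3.91, 2.45 and 2.86 CPM in NP- libraries (adjusted p = 0.786, edgeR). As for its partner H2-Eb1, the NP+ library of MET-107 was the highest of the NP+ libraries. H2-K2, listed in the reference beside H2-K1, was at 70.2, 83.2 and 70.6 CPM in NP+ libraries, against 64.6, 53.9 and 65.2 CPM in NP- libraries, with groups that did not overlap (log2 fold change 0.29 ± 0.18, SE; adjusted p = 0.341, edgeR). H2-Eb2, a class II beta chain, was at 0 to 0.0728 CPM in NP+ libraries and 0.167 to 1.04 CPM in NP- libraries and was not tested.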
